A study of Homo sapiens with 12 samples.

Results

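Genes of the epithelial cell's physical structure were followed, namely the claudins, the other tight junction and polarity proteins, the desmosome proteins, the simple keratins and a few epithelial proteases and surface or trafficking proteins, in 2 human embryonal carcinoma lines after knock-down of the transcription factor SOX2. The genes were chosen by name, from a list of 41, and were read from array probe sets annotated to them. This list and the further lists below were drawn up with earlier results of these data known, so their counts beside all genes are descriptive. Of the 41 genes, 39 were measured among 18404 genes, and they comprise 18 claudins and 21 other genes. F11R, the junctional adhesion molecule A, had no probe set that named it alone, and OCLN, which encodes occludin, lay only on a probe set shared with a pseudogene, so neither is given a value.

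The study used 2102Ep, called nullipotent in the labels, and NTera-2, which is pluripotent. There were 4 groups of 3 arrays, which were 2102Ep with siSOX2, 2102Ep with control siRNA, NTera-2 with siSOX2 and NTera-2 with control siRNA. Cells were transfected for 6 hours and kept for another 72 hours before RNA was taken, at passages 35 to 50 for 2102Ep and 40 to 50 for NTera-2. The siSOX2 was a single siRNA with no rescue, and the control was the Ambion Silencer Select Negative Control #1. Lipofectamine 2000 was used in 2102Ep, whereas Lipofectamine RNAiMAX and a larger amount of siRNA were used in NTera-2, so the line, the reagent and the amount cannot be told apart. The replicates are labelled biological, and p-values measure the spread between these arrays.

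Tight junctions seal the space between neighbouring epithelial cells. Claudins span the membrane and set which ions and solutes pass, occludin and tricellulin belong to the MARVEL family, and the ZO scaffolds and cingulin tie the membrane proteins to actin. Desmosomes hold cells together mechanically, with desmogleins and desmocollins outside the cell and plakophilins and desmoplakin joining them to keratin filaments. KRT8 and KRT18 pair into the first keratin filaments of the embryo and are also made by embryonal carcinoma cells, which grow as tightly packed epithelial-like colonies, and CLDN6 is known as a marker of such tumours.

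SOX2 itself had log2 signals of 9.17, 9.30 and 8.80 in 2102Ep siSOX2, against 12.28, 12.21 and 12.20 in 2102Ep control. In NTera-2 it had 11.92, 11.95 and 11.86 in siSOX2 cells, against 12.51, 12.52 and 12.63 in control cells. SOX2 mRNA thus fell far more in 2102Ep, with a log2 change of -3.14 ± 0.117 (SE, limma adjusted p = 6.22e-12), than in NTera-2, with -0.64 ± 0.117 (adjusted p = 0.00225). At the protein level, the paper reports that its Western blot detected no SOX2 after siSOX2 in either line. Arrays of a group correlated at 0.9825 to 0.9943 and array medians ran from 7.433 to 7.583. Of 13 embryonal carcinoma markers 11 were measured, without POU5F1 and NANOG. At a limma adjusted p of 0.05 or less, 7 of these were lower and 0 higher in 2102Ep (all genes, 5.9% and 6.76%). In NTera-2, 5 were lower and 0 higher (all genes, 1.98% and 2.96%). LIN28A was at 12.42 to 13.20 on all 12 arrays. Within a group the members had an SD of 0.017 to 0.350, with a median of 0.127 (n = 3 arrays each).

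After siSOX2, RAB25, KRT19 and CLDN4 rose past 2-fold in 2102Ep, and 26 of 39 members passed the adjusted p there in neither direction. In NTera-2 no member passed 2-fold, KRT19 rose and PRSS8 fell at the adjusted p, and 37 of 39 passed in neither direction. A gene was called at a limma adjusted p of 0.05 or less over all genes together with at least a 2-fold change. Of 39 members, 3 were called higher and 0 lower in 2102Ep, against 1.15% of all genes called higher and 0.826% called lower. At the adjusted p alone, 12 members were higher and 1 was lower (all genes, 6.76% higher and 5.9% lower), and "rose" and "fell" below are used of changes that passed this p. In NTera-2, 0 of 39 were called in either direction (all genes, 0.31% higher and 0.348% lower), and at the adjusted p alone 1 was higher and 1 lower (all genes, 2.96% and 1.98%). At an unadjusted p under 0.05 in limma, 15 members were higher and 2 lower in 2102Ep, and 4 were higher and 4 lower in NTera-2. Of all 18404 genes, 2142 were higher and 2069 lower in 2102Ep at that p, and 1849 higher and 867 lower in NTera-2. These all-gene counts stand beside every knock-down count at this p given below. The siSOX2 and control arrays did not overlap for 16 of 39 members in 2102Ep, beside 25.2% of all genes, and for 12 of 39 in NTera-2, beside 21.3%. In bulk RNA, fewer cells of a type and less RNA per cell cannot be told apart.

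**Figure D1:**
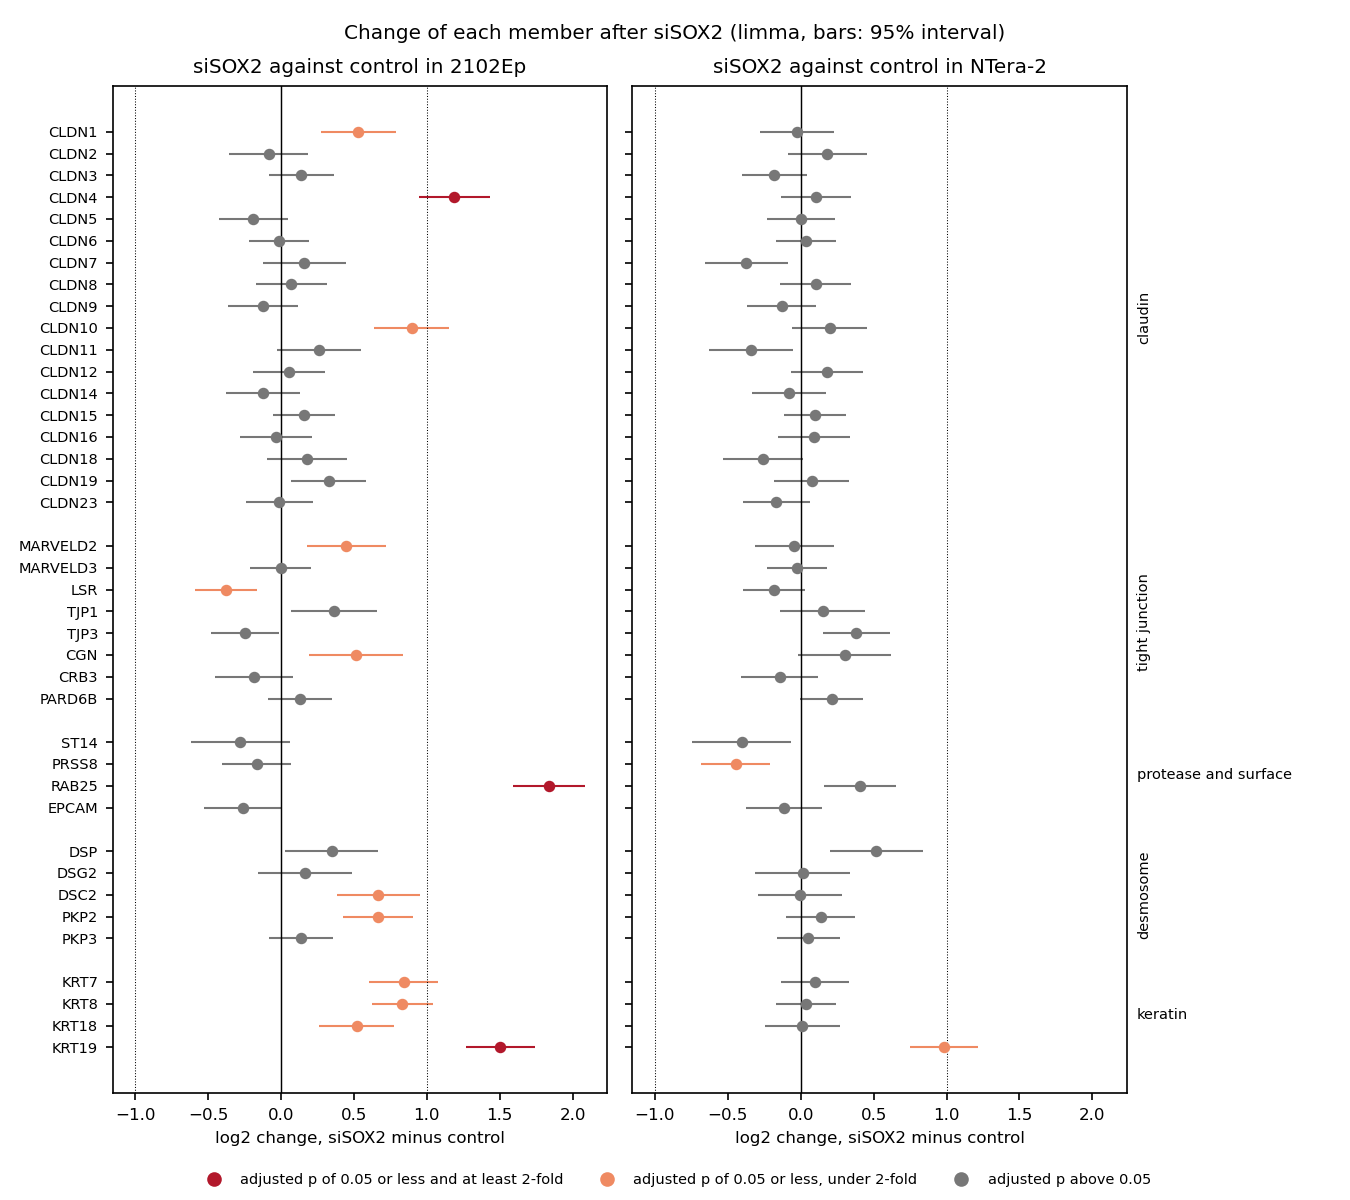
Change of each of the 39 measured members after siSOX2 in 2102Ep (left) and NTera-2 (right), as log2 signal in siSOX2 minus control cells with its 95% interval (limma, 3 arrays per group). Rows are grouped by role with claudins on top, dotted lines mark a 2-fold change, and in 2102Ep RAB25, KRT19 and CLDN4 lie beyond it while in NTera-2 KRT19 lies just short of it at 0.98.

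Among the claudins, CLDN4 alone was called in 2102Ep and 17 of 18 were not. CLDN4, a barrier-forming claudin, had log2 signals of 8.96, 9.37 and 9.05 in 2102Ep siSOX2, against 7.86, 7.95 and 8.01 in 2102Ep control. All siSOX2 arrays were above all control arrays, and the rise was 2.28-fold (log2 change 1.19 ± 0.114 SE, adjusted p = 1.01e-06). In NTera-2 it had 6.67, 6.55 and 6.76 in siSOX2 cells, against 6.50, 6.64 and 6.52 in control cells. Those groups overlapped, with a log2 change of 0.11 (95% interval -0.14 to 0.35). In NTera-2 the CLDN4 arrays were dim, below all array medians (7.433 to 7.583).

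A pair of further claudins rose in 2102Ep by less than 2-fold. CLDN10, which forms ion pores, had 8.67, 8.81 and 8.77 in siSOX2 cells, against 7.77, 8.10 and 7.69 in control cells (log2 change 0.90 ± 0.122, adjusted p = 4.91e-05). It reached 2-fold, at 1.02, when 2102Ep control replicate 2 was left out. CLDN1, a barrier claudin needed in skin, had 8.18, 8.18 and 7.91 in siSOX2 cells, against 7.69, 7.56 and 7.43 in control cells (log2 change 0.53 ± 0.121, adjusted p = 0.00580). For both genes the 2102Ep groups were apart, whereas in NTera-2 the changes were 0.20 for CLDN10 and -0.03 for CLDN1, with overlapping arrays.

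CLDN6, the claudin of early embryonic cells and germ cell tumours, was at 12.32 to 12.60 on all 12 arrays. It had 12.48, 12.37 and 12.32 in 2102Ep siSOX2, against 12.49, 12.40 and 12.32 in 2102Ep control, and 12.53, 12.60 and 12.45 in NTera-2 siSOX2, against 12.43, 12.58 and 12.46 in NTera-2 control. Its change was -0.01 (95% interval -0.22 to 0.19) in 2102Ep and 0.04 (-0.17 to 0.24) in NTera-2. CLDN12 had 10.47, 10.40 and 10.35 in 2102Ep siSOX2, against 10.41, 10.48 and 10.17 in 2102Ep control, and 10.69, 10.74 and 10.90 in NTera-2 siSOX2, against 10.44, 10.79 and 10.55 in NTera-2 control, so that the groups overlapped in both lines.

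CLDN7, an epithelial claudin, passed the adjusted p after siSOX2 in neither line. It had 12.63, 12.61 and 12.69 in 2102Ep siSOX2, against 12.66, 12.57 and 12.22 in 2102Ep control, and 7.47, 7.52 and 7.87 in NTera-2 siSOX2, against 8.15, 7.81 and 8.01 in NTera-2 control. The changes were 0.16 (95% interval -0.13 to 0.44) in 2102Ep and -0.37 (-0.66 to -0.09, adjusted p = 0.159) in NTera-2. The remaining 12 claudins changed by -0.19 to 0.33 in 2102Ep and by -0.34 to 0.18 in NTera-2, and none of them passed the adjusted p. At an unadjusted p under 0.05, 4 of 18 claudins were higher and 0 lower in 2102Ep, and 2 were lower and 0 higher in NTera-2. Of all 18404 genes, 2142 were higher and 2069 lower in 2102Ep, and 867 lower and 1849 higher in NTera-2. Over all 18 claudins the median log2 change was 0.10 in 2102Ep and 0.02 in NTera-2, beside -0.01 and 0.04 over all genes.

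CLDN3 and CLDN4 lie next to each other on chromosome 7 with no protein-coding gene between them, and after siSOX2 in 2102Ep CLDN4 passed the test while CLDN3 did not. CLDN3, also a barrier claudin, had 8.77, 8.62 and 8.67 in 2102Ep siSOX2, against 8.52, 8.39 and 8.72 in 2102Ep control (log2 change 0.14, 95% interval -0.08 to 0.36). The 250 bases before the start of each are printed to show the neighbours side by side, with that of CLDN7, which had the largest difference between the lines of the 18 claudins. CLDN4 was also lower in NTera-2 control than in 2102Ep control. They are RefSeq sequences of GRCh38.p14, 5′ to 3′ on the strand of the gene, at chr7:73830746-73830995 (plus strand) for CLDN4, chr7:73770271-73770520 (minus strand) for CLDN3 and chr17:7263214-7263463 (minus strand) for CLDN7. Capitals mark matches to the motifs searched, of which only CLDN3 held one.
CLDN4: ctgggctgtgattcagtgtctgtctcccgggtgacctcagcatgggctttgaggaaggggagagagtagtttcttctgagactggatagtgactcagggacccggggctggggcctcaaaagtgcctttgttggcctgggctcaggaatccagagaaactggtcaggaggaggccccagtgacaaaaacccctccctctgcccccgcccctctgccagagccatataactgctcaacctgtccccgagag
CLDN3: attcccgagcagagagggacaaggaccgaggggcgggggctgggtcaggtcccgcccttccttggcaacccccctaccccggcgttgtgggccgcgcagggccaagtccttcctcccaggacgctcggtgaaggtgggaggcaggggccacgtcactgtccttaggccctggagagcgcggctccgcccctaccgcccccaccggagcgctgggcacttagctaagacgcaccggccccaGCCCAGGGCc
CLDN7: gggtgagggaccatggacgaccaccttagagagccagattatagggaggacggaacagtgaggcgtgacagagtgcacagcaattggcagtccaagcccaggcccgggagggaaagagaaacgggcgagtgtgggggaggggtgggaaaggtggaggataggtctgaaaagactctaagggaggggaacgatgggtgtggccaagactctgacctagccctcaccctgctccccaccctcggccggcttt

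The motifs were CACCTG, the E-box bound by SNAI and ZEB repressors, ACCGGTT for the epithelial GRHL factors, GCCNNNGGC for AP-2 factors and CATTGTT for SOX factors, on both strands. Of 41 members 25 had a promoter in the table used, with 39 start sites between them. CACCTG stood before 12 of these 39 starts (30.8%), beside 17.5% of 35116 promoters of the same length, and GCCNNNGGC before 10 of 39 (25.6%), beside 19.8%. ACCGGTT and CATTGTT stood before 0 of 39, beside 0.626% and 2.87%. The match before CLDN3 was to GCCNNNGGC, 10 bases from the start. A second start of CLDN7, inside the gene, had a CACCTG in its window. These matches describe letters and not bound sites.

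The other tight junction and polarity genes moved in both directions by less than 2-fold, with 0 of 8 called in either line. At an unadjusted p under 0.05, 3 were higher and 2 lower in 2102Ep, beside 2142 and 2069 of all 18404 genes. In NTera-2, 1 was higher and 0 lower at that p, beside 1849 and 867. MARVELD2, which encodes tricellulin, the protein of corners where 3 cells meet, had 8.41, 8.65 and 8.55 in 2102Ep siSOX2, against 8.29, 8.04 and 7.93 in 2102Ep control, and rose 1.37-fold (log2 change 0.45 ± 0.129, adjusted p = 0.0273). CGN, cingulin, had 8.99, 9.12 and 9.02 in siSOX2 cells, against 8.72, 8.16 and 8.70 in control cells, and rose 1.43-fold (0.51 ± 0.151, adjusted p = 0.0313). Both sets of arrays were apart.

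LSR, angulin-1, which recruits tricellulin, was the only member that fell in 2102Ep. It had 10.48, 10.36 and 10.30 in 2102Ep siSOX2, against 10.74, 10.69 and 10.84 in 2102Ep control (log2 change -0.38 ± 0.101, adjusted p = 0.0172). The NTera-2 values were 9.95, 10.18 and 10.11 in siSOX2 cells, against 10.31, 10.29 and 10.20 in control cells. The NTera-2 arrays were also apart, and the change of -0.19 did not pass (adjusted p = 0.440).

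The ZO-1 scaffold TJP1 had 10.33, 10.32 and 10.14 in 2102Ep siSOX2, against 10.21, 9.52 and 9.96 in 2102Ep control, and 10.15, 9.98 and 10.08 in NTera-2 siSOX2, against 9.84, 9.98 and 9.95 in NTera-2 control. PARD6B, of the Par polarity complex, had 10.71, 10.65 and 10.59 in 2102Ep siSOX2, against 10.46, 10.68 and 10.43 in 2102Ep control, and 10.53, 10.71 and 10.62 in NTera-2 siSOX2, against 10.31, 10.44 and 10.47 in NTera-2 control. Neither passed the adjusted p in either line. TJP3, the ZO-3 scaffold, had opposite signs, at -0.25 (adjusted p = 0.186) in 2102Ep and 0.38 (adjusted p = 0.0561) in NTera-2. MARVELD3 and the Crumbs protein CRB3 did not pass in either line, at 0.00 and -0.19 in 2102Ep and -0.03 and -0.15 in NTera-2.

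A second list held 24 measured tight junction and polarity genes that are no members. In 2102Ep 0 of 24 were called and 4 rose at the adjusted p, which were the scaffold MAGI3 (log2 change 0.81), the angiomotins AMOTL2 (0.71) and AMOTL1 (0.55), and PALS1 (0.64), a partner of Crumbs. In NTera-2 0 were called and 1 rose, the polarity kinase PRKCZ (0.52). At an unadjusted p under 0.05, 4 were higher and 2 lower in 2102Ep, beside 2142 and 2069 of all 18404 genes. In NTera-2, 6 were higher and 1 lower at that p, beside 1849 and 867. The list's median change was 0.06 in 2102Ep and 0.12 in NTera-2.

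Of the desmosome genes, 2 of 5 rose in 2102Ep and 0 of 5 passed the adjusted p in NTera-2, where DSP missed it narrowly. None reached 2-fold. PKP2, plakophilin 2, had 10.96, 11.09 and 10.96 in 2102Ep siSOX2, against 10.52, 10.30 and 10.18 in 2102Ep control (1.59-fold, log2 change 0.67 ± 0.113, adjusted p = 0.000461). The NTera-2 values were 10.05, 9.87 and 10.18 in siSOX2 cells, against 9.90, 9.83 and 9.96 in control cells, which overlapped. DSC2, desmocollin 2, had 10.28, 10.37 and 10.33 in 2102Ep siSOX2, against 9.77, 9.90 and 9.31 in 2102Ep control (1.59-fold, 0.67 ± 0.135, adjusted p = 0.00227), and its NTera-2 change was -0.01.

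DSP, desmoplakin, the link to keratin filaments, had 9.99, 10.23 and 9.86 in 2102Ep siSOX2, against 10.03, 9.39 and 9.61 in 2102Ep control, and 8.68, 8.60 and 8.93 in NTera-2 siSOX2, against 8.05, 8.31 and 8.30 in NTera-2 control. The arrays overlapped in 2102Ep and were apart in NTera-2, where the change of 0.52 ± 0.151 narrowly missed the adjusted p (0.0603). DSG2, desmoglein 2, and PKP3, plakophilin 3, did not pass in either line, with changes of 0.16 and 0.14 in 2102Ep. At an unadjusted p under 0.05, 3 of 5 were higher in 2102Ep and 1 in NTera-2, beside 2142 and 1849 of all 18404 genes. The median over the 5 genes was 0.35 in 2102Ep and 0.05 in NTera-2.

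Of 12 further desmosome and plakin genes, 1 was called in 2102Ep. JUP, plakoglobin, which serves both desmosomes and cadherin junctions, was at 11.21 to 11.44 in 2102Ep siSOX2, against 9.93 to 10.30 in 2102Ep control (log2 change 1.18 ± 0.117, adjusted p = 1.42e-06). In NTera-2, 0 of 12 were called, and at the adjusted p alone PPL, periplakin, was higher (0.53) and DSC3, desmocollin 3, lower (-0.56).

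The keratins rose together in 2102Ep, where 4 of 4 passed the adjusted p with a median log2 change of 0.84. KRT19, a type I keratin of simple epithelia, had 11.86, 11.94 and 12.04 in 2102Ep siSOX2, against 10.54, 10.51 and 10.27 in 2102Ep control. This was a 2.84-fold rise (1.50 ± 0.111, adjusted p = 3.56e-08). In NTera-2 it had 9.57, 9.59 and 9.86 in siSOX2 cells, against 8.75, 8.65 and 8.67 in control cells, a 1.98-fold rise (0.98 ± 0.111, adjusted p = 2.16e-05). KRT19 was the only member to rise in both lines at this p, and it reached 2-fold in NTera-2 without siSOX2 replicate 1 (1.03), without siSOX2 replicate 2 (1.03) or without control replicate 1 (1.01).

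KRT8 and KRT18 form the filament pair of simple epithelia. KRT8 had 13.48, 13.49 and 13.39 in 2102Ep siSOX2, against 12.63, 12.57 and 12.66 in 2102Ep control (1.78-fold, log2 change 0.83 ± 0.0984, adjusted p = 1.1e-05), and 12.82, 12.74 and 12.57 in NTera-2 siSOX2, against 12.65, 12.74 and 12.63 in NTera-2 control. KRT18 had 12.75, 12.86 and 12.83 in 2102Ep siSOX2, against 12.53, 12.18 and 12.18 in 2102Ep control (1.43-fold, 0.52 ± 0.122, adjusted p = 0.00739), and 12.26, 12.08 and 12.50 in NTera-2 siSOX2, against 12.19, 12.32 and 12.29 in NTera-2 control. Both rose in 2102Ep with the arrays apart, and the NTera-2 changes were 0.04 and 0.01 with overlapping arrays.

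The annotated extents of KRT8 and KRT18 overlap, and both genes have processed pseudogenes. Whether any signal was shared through either was not tested. KRT18 had a second probe set, with a change of 0.77 in 2102Ep that did not pass over all probe sets (adjusted p = 0.124). KRT7, the type II keratin of glands and trophoblast, had 9.37, 9.59 and 9.53 in 2102Ep siSOX2, against 8.69, 8.66 and 8.62 in 2102Ep control (1.79-fold, 0.84 ± 0.111, adjusted p = 3.61e-05). The NTera-2 values were 7.93, 8.20 and 8.28 in siSOX2 cells, against 8.08, 7.92 and 8.12 in control cells, with no separation.

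Of 16 other epithelial keratins 1 was called, KRT23, a keratin also made by placental trophoblast, at 7.24 to 7.42 in 2102Ep siSOX2, against 5.75 to 5.88 in 2102Ep control (log2 change 1.49 ± 0.140, adjusted p = 7.09e-07). KRT80 also passed the adjusted p there, at 0.40. In NTera-2 0 of 16 passed (1 was higher at an unadjusted p under 0.05), and the list's median change was 0.00 in 2102Ep and 0.03 in NTera-2.

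**Figure D2:**
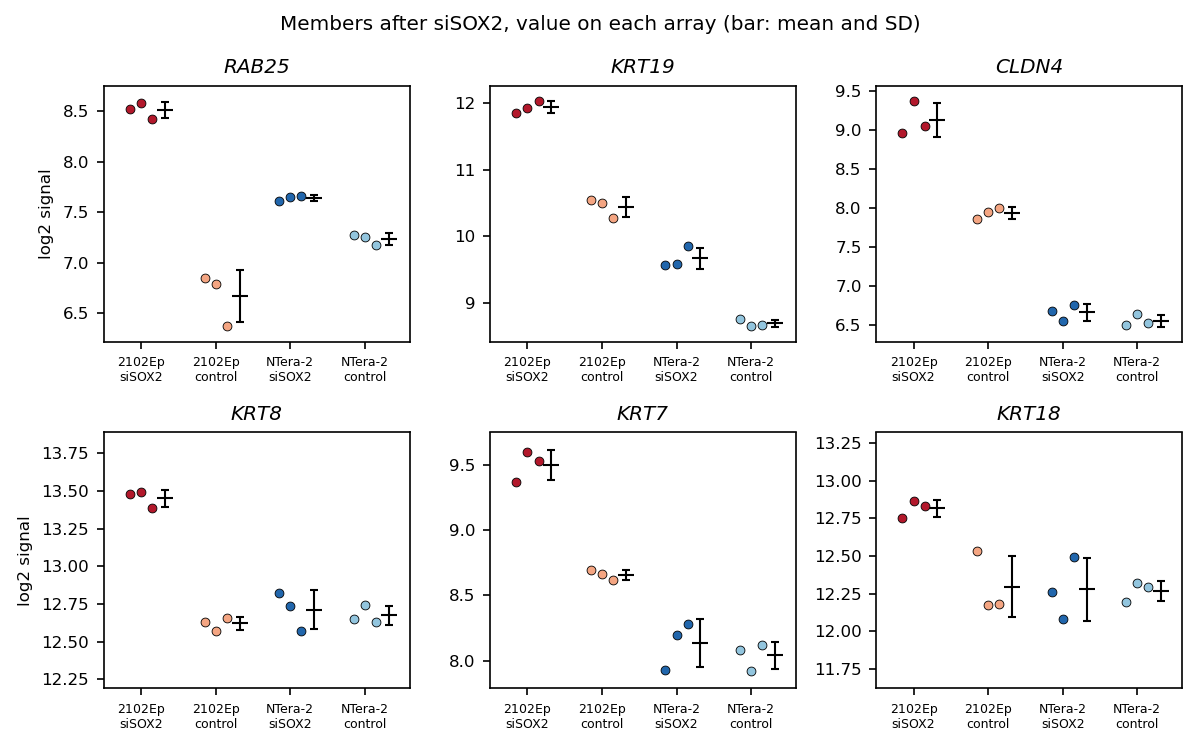
Log2 signal of 6 members on each of the 12 arrays, with the mean and SD of the 3 arrays beside the points. RAB25, KRT19, CLDN4, KRT8, KRT7 and KRT18 all lie higher in 2102Ep siSOX2 than in 2102Ep control with no overlap, and in NTera-2 RAB25 and KRT19 are apart between siSOX2 and control.

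Some markers of trophoblast and amnion, which are rich in simple keratins, also rose in 2102Ep. Of 17 measured, 9 passed the adjusted p upward, 2 downward and 6 in neither direction. Of these, 7 were called higher in 2102Ep, among them the transcription factors HAND1 (log2 change 4.03), TFAP2A (2.44) and GATA3 (2.15), and 1 was called lower, ERVW-1 (-1.15). Their summed signal was 13.13 to 13.21 on the log2 scale in 2102Ep siSOX2, against 11.80 to 11.87 in 2102Ep control, and 11.66 to 11.82 in NTera-2 siSOX2, against 11.31 to 11.38 in NTera-2 control. Much of the sum was HAND1, and without it (a choice made after seeing the data) the sums were 12.40 to 12.43 in 2102Ep siSOX2, against 11.70 to 11.77 in 2102Ep control, and 11.46 to 11.63 in NTera-2 siSOX2, against 11.24 to 11.31 in NTera-2 control. TFAP2C fell in 2102Ep (-0.63), and ELF5 and CGA, at 0.03 and 0.02, did not pass. In NTera-2, 1 of 17 was called, HAND1 (1.76). KRT23 is on this list too. The 11 embryonal carcinoma markers summed to 14.85 to 15.01 in 2102Ep siSOX2, against 15.29 to 15.51 in 2102Ep control, and to 15.22 to 15.37 in NTera-2 siSOX2, against 15.30 to 15.60 in NTera-2 control. Of these, 7 were lower and 0 higher at the adjusted p in 2102Ep, and 5 lower and 0 higher in NTera-2. CRIPTO (-1.16) and TERF1 (-1.02) were called lower in 2102Ep, and CRIPTO (-1.02) in NTera-2. The part of either marker set in the keratin and claudin changes was not tested.

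RAB25, a small GTPase of the Rab11 family that carries cargo to the apical membrane, had the largest change of the 39 members. It had 8.52, 8.58 and 8.43 in 2102Ep siSOX2, against 6.85, 6.79 and 6.38 in 2102Ep control. All siSOX2 arrays lay above all control arrays, and the rise was 3.57-fold (log2 change 1.84 ± 0.117, adjusted p = 5.6e-09). In NTera-2 it had 7.61, 7.65 and 7.66 in siSOX2 cells, against 7.28, 7.25 and 7.17 in control cells. These were apart too, but the change of 0.41 ± 0.117 narrowly missed the adjusted p (0.0558). In both lines the RAB25 control arrays were dim, below all array medians (7.433 to 7.583), where the averaging of probe signals compresses differences.

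The 250 bases before the RAB25 start, at chr1:156060910-156061159 on the plus strand (RefSeq, GRCh38.p14), are printed because this was the strongest responder. Capitals mark a single CACCTG, the E-box described above, 41 bases before the start.
RAB25: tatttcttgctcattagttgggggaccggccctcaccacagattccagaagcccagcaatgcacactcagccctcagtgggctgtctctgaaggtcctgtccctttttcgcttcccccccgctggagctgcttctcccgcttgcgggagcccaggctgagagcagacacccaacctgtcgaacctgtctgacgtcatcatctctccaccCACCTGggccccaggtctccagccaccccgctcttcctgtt

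Of the membrane proteases and EPCAM, only PRSS8 passed the adjusted p, in NTera-2. PRSS8, prostasin, a membrane-anchored serine protease that acts on the epithelial sodium channel, had 9.39, 9.66 and 9.60 in NTera-2 siSOX2, against 9.90, 10.21 and 9.86 in NTera-2 control, and was the only member that fell there (log2 change -0.44 ± 0.112, adjusted p = 0.0266). In 2102Ep it had 11.20, 11.22 and 11.11 in siSOX2 cells, against 11.39, 11.31 and 11.33 in control cells. These arrays were apart by a small margin, and the change of -0.16 did not pass (adjusted p = 0.443).

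ST14, matriptase, which activates prostasin, had 9.56, 9.43 and 9.28 in 2102Ep siSOX2, against 10.01, 9.59 and 9.50 in 2102Ep control, and 7.26, 7.31 and 6.74 in NTera-2 siSOX2, against 7.71, 7.46 and 7.35 in NTera-2 control. Its changes of -0.28 and -0.41 did not pass (adjusted p = 0.336 and 0.209). EPCAM, an epithelial adhesion protein also found on pluripotent cells, had 12.21, 12.33 and 12.32 in 2102Ep siSOX2, against 12.47, 12.73 and 12.45 in 2102Ep control, and 11.22, 10.99 and 10.99 in NTera-2 siSOX2, against 11.42, 11.15 and 10.96 in NTera-2 control. Its changes were -0.26 (adjusted p = 0.219) and -0.11 (0.776).

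Of 7 measured inhibitors and partners of these proteins, 0 were called in either knock-down, while at an unadjusted p under 0.05 there were 2 higher and 2 lower in 2102Ep and 1 higher and 1 lower in NTera-2. At the adjusted p alone, SPINT2, an inhibitor of matriptase, was lower in 2102Ep (-0.49) along with RAB11FIP1 (-0.54), an effector of Rab11 and RAB25, and CDCP1, a matriptase substrate, was lower in NTera-2 (-0.69).

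The responses of the lines were compared directly, as the log2 change in 2102Ep minus that in NTera-2. Of 39 members, 2 were called higher and 0 lower, beside 0.989% and 0.668% of all genes. RAB25 rose more in 2102Ep by 1.43 ± 0.165 (adjusted p = 3.01e-05), and CLDN4 by 1.08 ± 0.162 (adjusted p = 0.000397). CLDN4 dropped under the 2-fold threshold, to 0.96, when 2102Ep siSOX2 replicate 2 was left out. At the adjusted p alone, 5 members had the higher change in 2102Ep, adding KRT8 (0.80), KRT7 (0.74) and CLDN10 (0.70), and 1 had the lower, TJP3 (-0.63), beside 2.53% and 2.67% of all genes. These were 15 and 1 at an unadjusted p under 0.05, beside 1079 and 1665 of all 18404 genes. The count at the adjusted p depended on the scaling of the arrays, with 7 higher after median centring and 9 after a repeated quantile normalization, and 1 lower in each.

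KRT19, which rose in both lines, differed by 0.52 (95% interval 0.19 to 0.85, adjusted p = 0.0675), and it passed after median centring (adjusted p = 0.0378) and quantile normalization (0.00756), so its call depends on the scaling. PKP2 (0.53, adjusted p = 0.0683) likewise passed after both (0.0479 and 0.0115), DSC2 (0.67, adjusted p = 0.0505) after quantile normalization (0.0171) and not after centring (0.0665), and CLDN7 (0.53, adjusted p = 0.149) after quantile normalization (0.0472) and not after centring (0.0965). KRT18 (0.51, adjusted p = 0.118) missed the threshold under all 3 scalings. Of the other structural lists JUP (1.05) and KRT23 (1.61) were called higher in 2102Ep. Of the 17 trophoblast and amnion markers 6 were called higher, which were TFAP2A (2.49), HAND1 (2.26), KRT23, GATA3 (1.35), CDX2 (1.21) and DLX3 (1.14), and 1 lower, TFAP2C (-1.06). The fibroblast marker POSTN was also called higher (1.84). SOX2 fell by 2.49 more in 2102Ep than in NTera-2, and the part of this depth of knock-down, or of these markers, in the differences was not tested.

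Under control siRNA, the members that differed between the lines were mostly lower in NTera-2, more so outside the claudins than among them. In NTera-2 control, 7 of 39 members were called lower than in 2102Ep control and 0 higher, beside 3.28% of all genes lower and 4.49% higher. At the adjusted p alone, 16 members were lower and 3 higher (all genes, 21.5% and 21%). Arrays of the lines did not overlap for 21 of 39 members, close to the 50.5% of all genes. By group, 2 of 18 claudins and 5 of 21 other members were called. At the adjusted p alone, 4 claudins were lower and 2 higher, and 12 other members were lower and 1 higher. At an unadjusted p under 0.05, 19 members were lower and 3 higher, beside 4766 lower and 4331 higher of all 18404 genes. These comparisons use the control arrays given above, which also serve the knock-down comparisons.

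**Figure D3:**
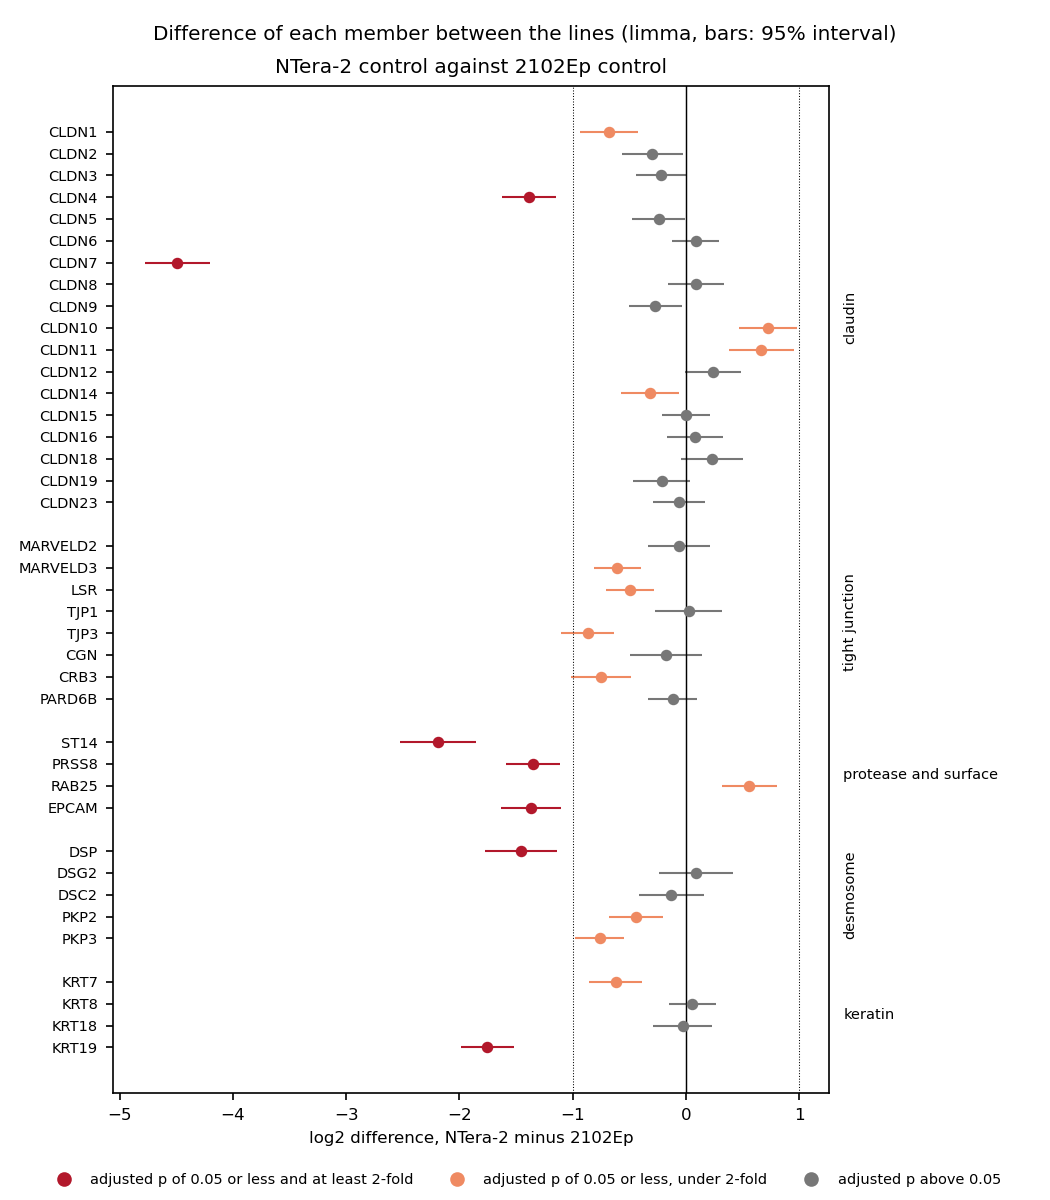
Difference of each of the 39 measured members between the lines under control siRNA, as log2 signal in NTera-2 minus 2102Ep with its 95% interval (limma, 3 arrays per group). Dotted lines mark a 2-fold difference; CLDN7 lies far to the left at -4.49, with 6 further members below -1 and none above 1.

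CLDN7 showed the largest difference of the 39 members. It had 8.15, 7.81 and 8.01 in NTera-2 control, against 12.66, 12.57 and 12.22 in 2102Ep control, 22.5-fold lower in NTera-2 (log2 difference -4.49 ± 0.135, adjusted p = 2.69e-13). CLDN4 was 2.61-fold lower (-1.38 ± 0.114, adjusted p = 4.55e-08). At the adjusted p alone CLDN1 (-0.68) and the inner ear and kidney claudin CLDN14 (-0.32) were lower, and CLDN10 (0.72) and CLDN11 (0.67), a claudin of myelin and Sertoli cells, were higher. CLDN14 was dim, at 5.99 to 6.18 in NTera-2 control, against 6.20 to 6.59 in 2102Ep control, below all array medians (7.433 to 7.583). CLDN6 differed by 0.09 (95% interval -0.12 to 0.30).

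Of the other tight junction genes 4 of 8 were lower at the adjusted p, each by less than 2-fold, which were TJP3 (-0.87), CRB3 (-0.75), MARVELD3 (-0.61) and LSR (-0.49). The scaffold TJP1 did not pass (0.02, 95% interval -0.27 to 0.32). In the second tight junction list JAM2, a junctional adhesion molecule, was called higher, at 9.38 to 9.52 in NTera-2 control, against 6.97 to 7.21 in 2102Ep control (log2 difference 2.40 ± 0.124, adjusted p = 1.42e-10), and is named after its values were seen.

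DSP was 2.74-fold lower in NTera-2 control (log2 difference -1.46 ± 0.151, adjusted p = 6.47e-07), with no array of NTera-2 control above 8.31 and none of 2102Ep control below 9.39. PKP3 (-0.76) and PKP2 (-0.44) were lower at the adjusted p, while the membrane-spanning desmosome proteins DSG2 (0.09) and DSC2 (-0.13) did not pass. Among keratins KRT19 was 3.37-fold lower (-1.75 ± 0.111, adjusted p = 1.79e-09) and KRT7 1.53-fold lower (-0.62, adjusted p = 0.000223). KRT8 (0.06, 95% interval -0.15 to 0.26) and KRT18 (-0.03, -0.29 to 0.23) did not pass.

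The surface proteases and EPCAM were lower in NTera-2 control. ST14 was 4.57-fold lower (log2 difference -2.19 ± 0.160, adjusted p = 9.78e-09), PRSS8 2.55-fold (-1.35 ± 0.112, adjusted p = 4.92e-08) and EPCAM 2.58-fold (-1.37 ± 0.124, adjusted p = 1.42e-07). A second EPCAM probe set gave -1.36. RAB25 was the exception, 1.48-fold higher in NTera-2 (0.56 ± 0.117, adjusted p = 0.000830). Of the 7 inhibitors and partners 3 were called lower, the matriptase inhibitors SPINT2 (-2.35) and SPINT1 (-1.39) and the epithelial trafficking GTPase RAB17 (-1.83), which are named after their values were seen.

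**Figure D4:**
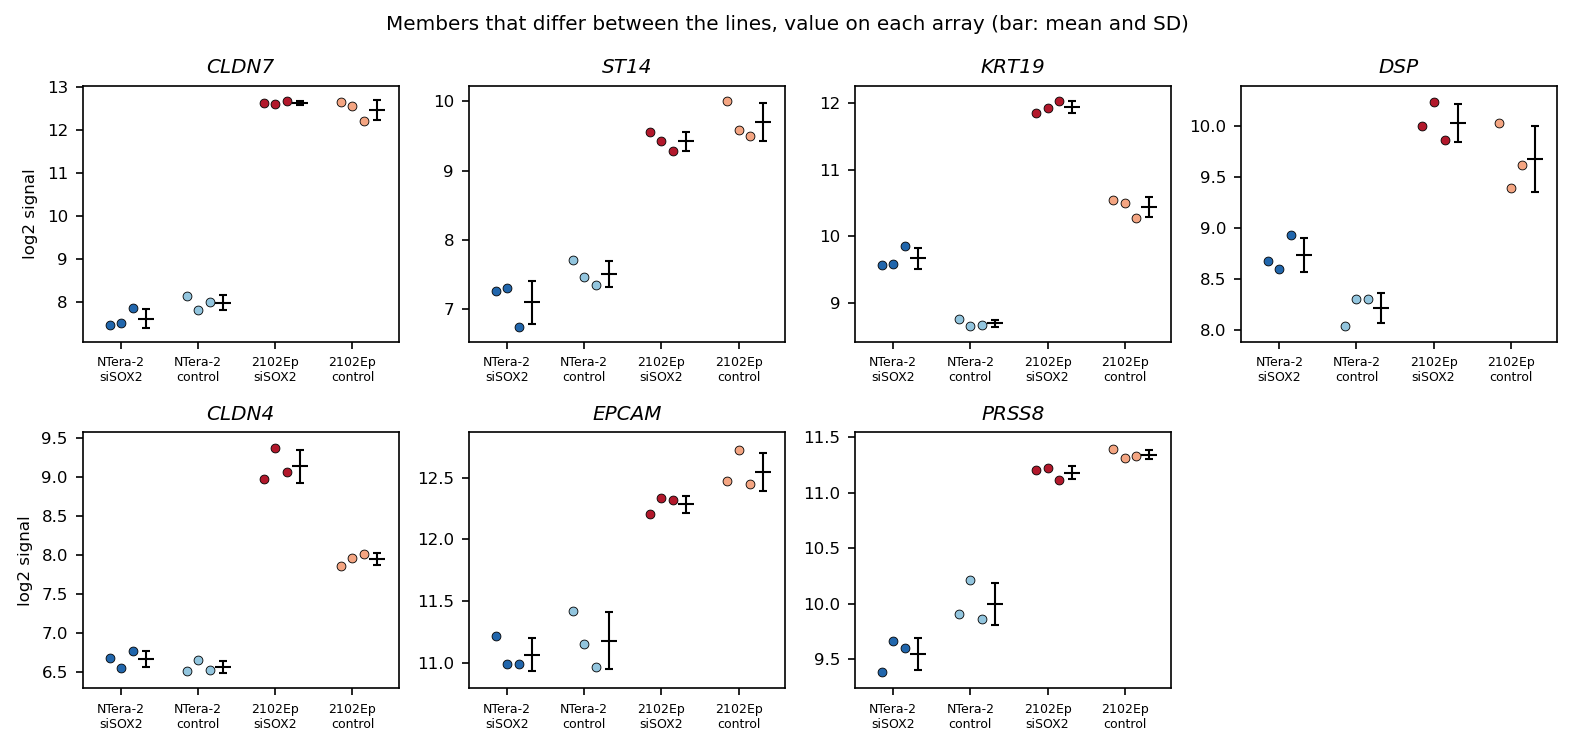
Log2 signal on each of the 12 arrays for the 7 members called lower in NTera-2 control than in 2102Ep control, with the mean and SD of the 3 arrays beside the points. In each panel all 6 NTera-2 arrays lie below all 6 2102Ep arrays, including those with siSOX2.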

How the data were processed

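RNA of 12 cultures was measured on Affymetrix Human Gene 1.0 ST arrays. The values deposited by the authors are log2 signals per probe set, made per the study's methods by robust multi-array averaging in the manufacturer's software. The log base was inferred from the range of 1.57 to 14.98, and software version and genome build are not given in the sources used here. Such averaging compresses differences of dim genes. An array gives no molecule counts, so the number of arrays limits the precision. Submitters' notes name limma.

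Of 32321 probe sets, the platform annotation named 1 gene for 19158, several for 1388 and none for 11775. Only the first kind was used. Symbols of 18376 of 18404 genes matched RefSeq (GRCh38.p14). For 637 genes with several probe sets, that with the highest mean was taken.

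All 12 arrays were fitted with lmFit, contrasts and eBayes of limma 3.58.1 (R 4.3.3, data.table version 1.17.8), with Benjamini-Hochberg adjustment over 18404 genes within each of 4 contrasts. Calls needed an adjusted p of 0.05 or less and a log2 change of at least 1. For a single gene, the smallest two-sided p that exact permutation of 3 and 3 arrays allows is 0.1. The fit was tested on simulated data. Intervals are 95%. No batch is given in the sources used here. Figures used matplotlib 3.10.9 (Python 3.11.15).

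The members and lists were chosen with earlier results of these data known. The lists held other tight junction and polarity genes, other desmosome and plakin genes, other epithelial keratins, protease inhibitors and partners, and markers of embryonal carcinoma, trophoblast and amnion, fibroblasts, leukocytes, vascular endothelium and neural cells. Values on every array are given for members called in at least 1 contrast or with a mean signal of 10 or more, and for some others. From each other list up to 4 genes called in a knock-down were named, smallest adjusted p first. Further names were taken after their values were seen, among them genes that passed the adjusted p and some, such as ELF5 and CGA, that did not. Summed signals are log2 of the sum of linear signals over a list. The alternatives left out each array in turn, dropped dim genes, dropped the fold threshold, took the mean of probe sets or every probe set as a feature, centred arrays on their median, repeated quantile normalization, restricted the fit to the groups of a contrast, or added the replicate number as a block.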

Additional observations from a re-analysis of the deposited data

Results flagged for a closer look

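Among the members, 2 differed between the lines in their response to siSOX2 by a test of the difference itself. RAB25, the Rab11-family GTPase, had a log2 change in 2102Ep minus that in NTera-2 of 1.429 (limma adjusted p = 3.01e-05), and its siSOX2 arrays lay above its control arrays in both lines. CLDN4, the barrier claudin, had a difference of 1.084 (adjusted p = 0.000397), with arrays apart in 2102Ep and overlapping in NTera-2. RAB25 in the control cells of both lines and CLDN4 in NTera-2 were dim, below all array medians. The fall of SOX2 mRNA was also larger in 2102Ep, and its part in these differences was not tested.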

How the results depend on the processing

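Counts of called members kept their value in most alternatives. Without genes below the median mean signal of 8.032, which removes 11 members including CLDN4 and RAB25 by construction, called claudins numbered 0 and other members 1 in 2102Ep, 0 and 0 in the difference in response, and 1 claudin in the line comparison. With no fold threshold, called claudins and other members numbered 3 and 10 in 2102Ep, 2 other members in NTera-2, 2 and 4 in the difference, and 6 and 13 between the lines. Leaving out 1 array gave 1 to 2 claudins in 2102Ep (2 without 2102Ep control replicate 2, which adds CLDN10), 0 to 1 other members in NTera-2 (1, KRT19, without siSOX2 replicate 1 or 2 or control replicate 1) and 0 to 1 claudins in the difference (0 without 2102Ep siSOX2 replicate 2), with all other counts at their value. For 14 single-gene results under 259 settings, 254 kept direction and side of the threshold, 1 fell below it, 4 rose past it and 0 reversed. A fit of only the groups compared is not defined for the difference in response, which uses all groups, and was not run there.

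With the replicate number as a block, the called claudins numbered 1 in 2102Ep, 0 in NTera-2, 1 in the difference and 2 between the lines, and the other members 2, 0, 1 and 5, the same counts as without it. The numbers were not taken to pair the arrays. Deviations from the group means, across genes, of same-numbered siSOX2 and control arrays correlated at 0.0652, 0.179 and 0.128 in 2102Ep. In NTera-2 these correlations were -0.249, -0.206 and 0.136. Arrays of unlike number correlated at -0.394 to 0.295 in 2102Ep and at -0.228 to 0.343 in NTera-2. The block therefore does not account for any grouping of arrays that runs across the numbers. In the difference in response, members higher at the adjusted p numbered 7 under median centring and 9 under quantile normalization, against 5. The NTera-2 claudin median turned to -0.02 under median centring and to -0.01 under quantile normalization. Differences of dim members are compressed by the averaging, and 3 arrays a group limit the detection of small changes.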

Other observations

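Markers of other cell types were read as well. Fibroblast markers (10 measured) summed to 11.63 to 11.84 in 2102Ep siSOX2, against 11.64 to 11.85 in 2102Ep control, and to 11.49 to 11.61 in NTera-2 siSOX2, against 11.90 to 12.03 in NTera-2 control, all on the log2 scale. Without THY1, left out after seeing the data, the sums were 11.03 to 11.15 in 2102Ep siSOX2, against 10.47 to 10.84 in 2102Ep control, and 10.48 to 10.63 in NTera-2 siSOX2, against 10.12 to 10.33 in NTera-2 control, so that in NTera-2 the direction of the sum turned. Of the 10 genes, POSTN, periostin, was called lower in NTera-2 (log2 change -1.69, limma adjusted p = 3.5e-06). At the adjusted p alone 3 were higher there, LUM (0.74), COL1A2 (0.68) and PDGFRB (0.49), and 2 lower, POSTN and THY1 (-0.86), with a median change of 0.25. In 2102Ep 0 were called, and at the adjusted p alone 2 were higher and 1 lower. Without adjustment, at a p under 0.05, 3 were higher and 1 lower in 2102Ep, and 5 higher and 2 lower in NTera-2. Of 8 leukocyte markers 0 were called in either knock-down. At the adjusted p alone, 1 was lower and 0 higher in 2102Ep, and 0 passed in NTera-2. At an unadjusted p under 0.05, 1 was higher and 1 lower in 2102Ep and 0 in NTera-2. The leukocyte sums were 9.83 to 10.05 in 2102Ep siSOX2, against 9.82 to 9.99 in 2102Ep control. In NTera-2 they were 9.41 to 9.72 in siSOX2 cells, against 9.60 to 9.79 in control cells. PTPRC, the defining leukocyte gene, was at 3.97 to 4.43 on all 12 arrays.

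Of 8 vascular endothelium markers 0 were called in either knock-down. At the adjusted p alone, 1 was higher and 2 lower in 2102Ep, and 0 higher and 1 lower in NTera-2. At an unadjusted p under 0.05, 1 was higher and 4 lower in 2102Ep and 2 were higher and 2 lower in NTera-2. Their sums were 10.61 to 10.69 in 2102Ep siSOX2, against 10.86 to 11.002 in 2102Ep control, with the groups apart. In NTera-2 they were 10.89 to 11.17 in siSOX2 cells, against 10.99 to 11.25 in control cells, which overlapped. Of 8 neural markers 1 was called in 2102Ep, MAP2, a microtubule protein of neurons (log2 change 1.20, adjusted p = 3.79e-05), and 0 in NTera-2, where 2 were higher at an unadjusted p under 0.05. The neural sums were 11.10 to 11.18 in 2102Ep siSOX2, against 11.03 to 11.30 in 2102Ep control, and 12.33 to 12.37 in NTera-2 siSOX2, against 12.07 to 12.21 in NTera-2 control, so that the groups overlapped in 2102Ep and were apart in NTera-2.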
